A study of Mus musculus with 18 samples.

Results

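The genes described here are 50 mouse genes of the interferon response and of antigen presentation by major histocompatibility complex (MHC) class I, taken from a fixed list of symbols. All 50 were found among the 34162 gene rows of the table, and all 50 were among the 14876 genes that had enough counts to be tested. Each RNA-seq library was made from about 500 CD4+ effector T cells, sorted at week 3 after T cell transfer. The recipients in all groups were Rag deficient mice, a strain without lymphocytes that need receptor gene rearrangement. Donor-derived cells were taken from 3 organs, the spleen, the colon lamina propria (cLP) and the small intestine lamina propria (siLP), the lamina propria being the connective tissue under the gut epithelium. Transferred cells were either wild type (C57BL/6 CD45.1+) or deficient in CAR, the constitutive androstane receptor encoded by Nr1i3 (C57BL/6 Nr1i3-/-). CD45.1 is a surface marker variant that lets transferred cells of the 2 origins be told apart. The 6 groups held 3 libraries each, 18 in all. Age, the sorting gate beyond the cell type, the number of hosts, and whether both kinds of cell shared a host are not given in the sources used here. No label ties the 3 libraries of each group to different animals, so every p-value below measures only the spread between these libraries.

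Interferons are secreted proteins that act through JAK kinases and STAT transcription factors. Type I interferons lead to a complex of STAT proteins and IRF9 that binds the interferon-stimulated response element, whereas interferon gamma, made by activated T cells themselves, leads to STAT pairs that bind the gamma-activated site and induce IRF1. The products include antiviral proteins, GTPases that attack the vacuoles of intracellular pathogens, and the machinery that cuts peptides and loads them onto MHC class I molecules. The list was split by these roles into 6 genes of signalling and transcription, 3 sensors of nucleic acids, 20 antiviral effectors, the 3 genes Parp9, Dtx3l and Parp14, 10 GTPases and 8 genes of class I presentation.

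Promoters of 37 of the 50 genes were in the RefSeq promoter table for GRCm38.p6, which holds the 250 bases before and 50 after each start of transcription. The windows below belong to antiviral effectors and GTPases whose values by organ or by library are described further on, and are given 5′ to 3′ on the gene's own strand. Capitals mark every match to the response element core, GAAA followed by NN and GAAA (TTTC, NN and TTTC on the other strand), or to the gamma-activated site, TTC followed by NNN and GAA, with N for any base. The search covered both strands, and where matches overlap they run together.
Ifit3, chr19:34583363-34583426, plus strand: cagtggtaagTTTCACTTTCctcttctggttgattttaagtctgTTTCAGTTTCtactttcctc
Ifit1, chr19:34640775-34640823, plus strand: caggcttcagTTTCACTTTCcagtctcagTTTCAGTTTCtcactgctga
Isg15, chr4:156200865-156200906, minus strand: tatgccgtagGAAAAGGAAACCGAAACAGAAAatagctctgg
Oas1a, chr5:120907526-120907633, minus strand: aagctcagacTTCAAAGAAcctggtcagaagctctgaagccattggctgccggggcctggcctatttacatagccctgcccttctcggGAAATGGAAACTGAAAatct
Bst2, chr8:71537577-71537618, minus strand: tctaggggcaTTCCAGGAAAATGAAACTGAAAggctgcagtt
Rsad2, chr12:26456553-26456582, minus strand: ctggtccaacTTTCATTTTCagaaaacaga
Igtp, chr11:58199501-58199541, plus strand: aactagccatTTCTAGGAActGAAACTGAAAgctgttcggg
Irgm1, chr11:48871425-48871460, minus strand: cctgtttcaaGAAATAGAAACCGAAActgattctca
Gbp7, chr3:142530220-142530302, plus strand: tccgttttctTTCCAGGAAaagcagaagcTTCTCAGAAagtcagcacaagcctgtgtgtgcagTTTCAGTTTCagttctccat

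The response element core was present in 18 of the 37 promoters (48.65%), against 3.993% of the 27025 genes in the table. The gamma-activated site was present in 10 of 37 (27.03%), against 9.554% of those genes. By role, the response element core was found in 6 of 7 GTPase promoters (Igtp, Irgm1, Gbp2, Gbp3, Gbp5 and Gbp7), 8 of 16 of the antiviral effectors, both sensors Ddx58 and Ifih1, and 1 of 7 of the class I genes (B2m). Igtp, Gbp5, Gbp7, Oas1a and Bst2 held both kinds of match, and in Bst2 the 2 overlap. A match is a description of these letters only.

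The libraries held 19605135 to 25436389 estimated counts. The count columns of each group carry the same 3 name endings, called a, b and c here, and the sources used here do not say what the endings stand for. In the 6 libraries a, between 15466 and 16128 genes were detected and 3.70% to 3.98% of counts were mitochondrial, against 17013 to 18819 genes and 2.23% to 3.22% in the other 12. Nr1i3 could not check the genotype labels, since it had fewer than 3 counts in 10 of 18 libraries and its highest count, 196, was in the library siLP CAR-deficient a. The T cell markers Cd3e, Cd3d, Cd3g, Cd4 and Trac were present in every library, with 5263 to 13444 CPM in sum, where CPM are counts scaled to a common library total. Marker sums of other cells were lower: 35.2 to 158.7 CPM for CD8 and natural killer cells and 226.3 to 630.5 for macrophages, monocytes and neutrophils, and single markers reached 149 CPM for Eomes, 546 for Cst3, 119 for Lyz2 and 65.3 for Cd68. Cd8a, Csf1r and S100a9 stayed under 6 CPM. Of the B cell and MHC class II markers Cd79a reached 4.13 CPM, Cd79b 31.6, H2-Ab1 59.6 and Cd74 172 CPM. Haemoglobin genes and the epithelial genes Cdh1 and Krt8 differed between organs and are given beside the organ results.

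Genes can be compared with each other only per length, for which CPM were divided by the kilobases of merged exons of each gene in the GENCODE vM21 annotation (CPM per kb). Merged exons include those of rare isoforms, so these levels are low estimates for genes with many isoforms. B2m, the invariant light chain of every class I molecule, was highest at 16056 ± 5406 CPM per kb (mean ± SD, n = 18). It was followed by Ifi27l2a, a small interferon-induced mitochondrial protein, at 2291 ± 1541 CPM per kb, and by the class I heavy chain H2-D1 at 1020.04 ± 444 CPM per kb. The lowest were Ifi44 at 0.255 ± 0.246 CPM per kb, and Oasl1 and Oas2 of the oligoadenylate synthetase family at 0.310 ± 0.383 and 0.517 ± 1.22 CPM per kb. In these 3 genes, and in others such as Ifit3, Usp18, Ifit1, Rsad2, Oasl2 and Oas1a, the SD was near or above the mean. Class I genes ranged from 12.1 CPM per kb for the peptide transporter subunit Tap2 to B2m, and the GTPases from 1.58 for Gbp5 to 232 for Ifi47. Among the regulators Irf1 stood at 93.2 CPM per kb and Stat2 at 4.09, and among the sensors Zbp1 at 39.9 and Ifih1, which detects long viral RNA, at 6.33. Psmb8, a peptide-cutting subunit of the immunoproteasome, had 401 CPM per kb, and Sp100, a nuclear body protein, 128. Some of these levels are uncertain because reads can be shared: of the 31-base words in the transcripts, 74.3% for Gbp6, 68.8% for Oas1a and 61.8% for Ifit3 also occur in other genes (Gm43302, Oas1g and Ifit3b), and 22.8% and 26.9% for H2-K1 and H2-D1. Library strand was not kept, so reads of the overlapping pairs Parp9 and Dtx3l, and Psmb9 and Tap1, cannot always be told apart.

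**Figure D1:**
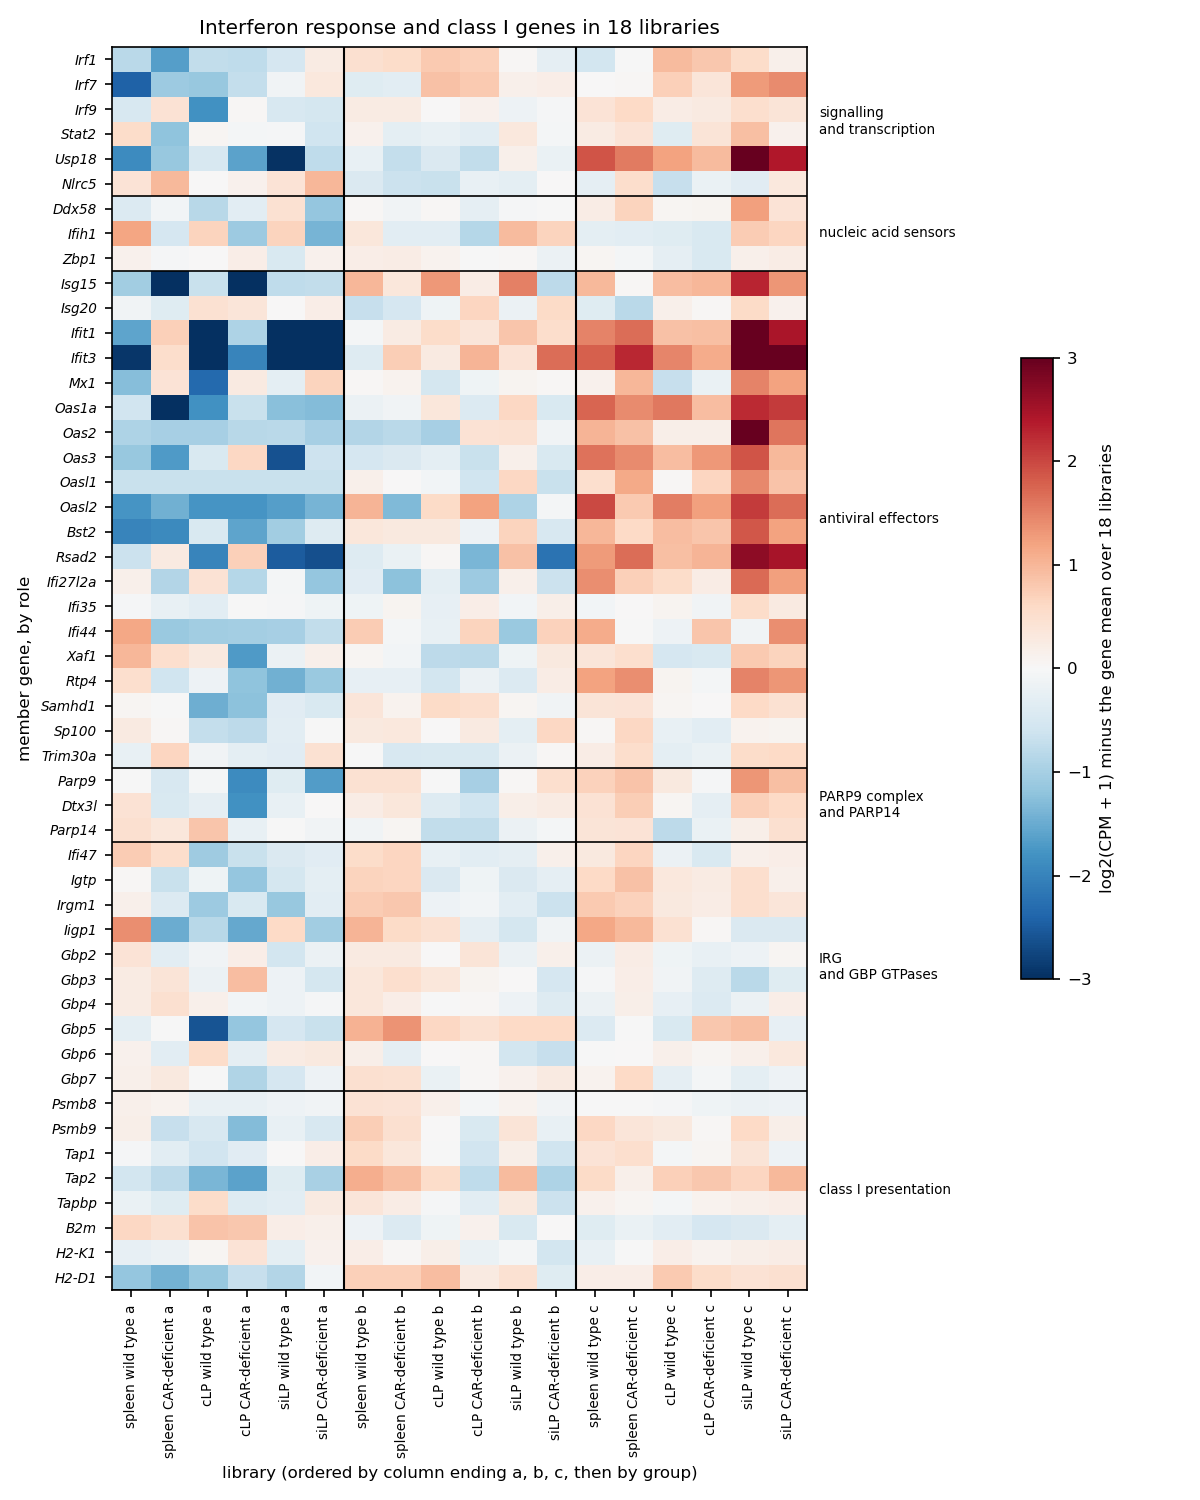
Level of each of the 50 genes (rows, by role) in each of the 18 libraries (columns, ordered by name ending and then group), as log2(CPM + 1) minus the gene's mean over the 18 libraries (colour, from -3 to 3). Most antiviral effectors are blue in the 6 libraries a and red in the 6 libraries c, while Ifi47 and Isg20 differ by organ in all 3 blocks.

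The first question was how these genes differ between T cells of the gut and of the spleen. In the colon 38 of 50 fitted differences from the spleen were below 0, with a median log2 fold change of -0.37 against 0.00 over all 14876 genes. A single gene passed the test, the GTPase gene Ifi47, which was lower (edgeR's quasi-likelihood test, Benjamini-Hochberg adjusted over all genes), where 0.35% of all genes tested were called lower. No member was called higher, where 2.72% of all genes were. At an unadjusted p under 0.05 there were 9 members lower and 1 higher, 20% of the members against 14.99% of all genes.

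Ifi47 encodes an immunity-related GTPase induced by interferon gamma. Spleen libraries a, b and c stood at 915.3, 795.5 and 666.5 CPM with wild type cells, and at 776.5, 854.1 and 854.6 CPM with CAR-deficient cells. Colon libraries stood at 257.8, 467.8 and 483.1 CPM with wild type cells, and at 338.7, 431.8 and 393.8 CPM with CAR-deficient cells. Every colon library therefore lay below every spleen library, and so did every siLP library, at 399.9, 452.7 and 604.6 CPM (wild type) and 428.9, 598.2 and 627.4 CPM (CAR-deficient). The log2 fold change from spleen to colon was -1.03 ± 0.19 (SE, adjusted p = 0.00587, edgeR), with separate values of -0.98 for wild type and -1.09 for CAR-deficient cells, and Ifi47 was lower in 6 of 6 pairs matched for genotype and ending. The gene lies at chr11:49076587-49096974 (GRCm38, plus strand), and its annotation overlaps the olfactory receptor gene Olfr56, with which it shares 6.37% of its 31-base words. In such bulk libraries fewer cells that express a gene and less RNA per cell cannot be told apart.

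Other GTPases stood in the same direction, 9 of 10 below 0 in the colon, with a median of -0.53. Gbp7, a guanylate-binding protein gene, had 168.0 to 237.5 CPM in the spleen (median 204.0) and 83.4 to 159.9 CPM in the colon (median 142.8), again without overlap, for a log2 fold change of -0.57 ± 0.18 (adjusted p = 0.115, edgeR). Iigp1, the immunity-related GTPase known from defence against Toxoplasma, had a median of 90.5 CPM in the spleen and 41.6 CPM in the colon, but its spleen libraries ranged from 15.5 to 120.7 CPM (log2 fold change -0.94 ± 0.40, adjusted p = 0.267, edgeR). Irgm1 and Igtp, which regulate other GTPases of the family, gave -0.67 ± 0.32 and -0.58 ± 0.30. Gbp6 alone was above 0, at 0.15. Spleen and colon libraries did not overlap in Ifi47 and Gbp7 and overlapped in the other 48 members. How often this holds over all genes was not counted, so no weight is put on it.

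Among the antiviral effectors 14 of 20 were below 0 in the colon, with a median of -0.42. Xaf1, an interferon-induced gene linked to cell death, ranged from 179.6 to 375.8 CPM in the spleen (median 257.2) and from 57.5 to 232.7 CPM in the colon (median 120.8). Its log2 fold change was -1.02 ± 0.27 (adjusted p = 0.0557, edgeR). Isg20, an exonuclease of RNA, went the other way, at 52.6 to 85.7 CPM in the spleen and 83.8 to 145.4 CPM in the colon, so that 1 colon library lay below the highest spleen library. The log2 fold change of Isg20 was 0.73 ± 0.19 (adjusted p = 0.0533, edgeR). Neither gene passed the threshold of 0.05 in this fit.

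The Parp9 and Dtx3l pair, which forms a ubiquitin ligase complex that enhances interferon signalling, had values of -0.76 and -0.81 in the colon, and Parp14 had -0.47. Of the class I genes, the peptide transporter subunit Tap1 and the immunoproteasome subunit Psmb9 had -0.51 ± 0.21 and -0.58 ± 0.26, and Psmb8 had -0.27 ± 0.14. None of these 6 passed the threshold. Signalling genes were divided: Irf1 and Irf7 stood above 0 (0.60 and 0.85), and Irf9, Stat2, Usp18 and Nlrc5 below.

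Libraries were also compared within the ending, in 6 pairs for each organ comparison, a step added after the values had been seen. In 17 of the 50 genes (34%) all 6 colon libraries were lower than their spleen counterparts, against 7.8% of all genes tested. These were Ifi47, Igtp, Irgm1, Iigp1, Gbp4 and Gbp7 of the GTPases, Xaf1, Mx1 and Sp100 of the effectors, Parp9 and Dtx3l, Ddx58, Ifih1 and Irf9, and Psmb8, Psmb9 and Tap1. All 6 pairs were higher in Irf1, Irf7 and Isg20, 6% of the members against 8.17% of all genes. With the ending as a term of the fit, 7 members were called lower in the colon (Ifi47, Xaf1, Dtx3l, Irgm1, Psmb9, Gbp7 and Sp100), where 1.1% of all genes were, and Isg20 was called higher, where 3.93% were. In that fit Ifi47 had -1.07 ± 0.15 (adjusted p = 0.000744, edgeR), Psmb9 -0.60 ± 0.13 (0.0149), Xaf1 -1.01 ± 0.25 (0.0317) and Isg20 0.74 ± 0.19 (0.0371).

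**Figure D2:**
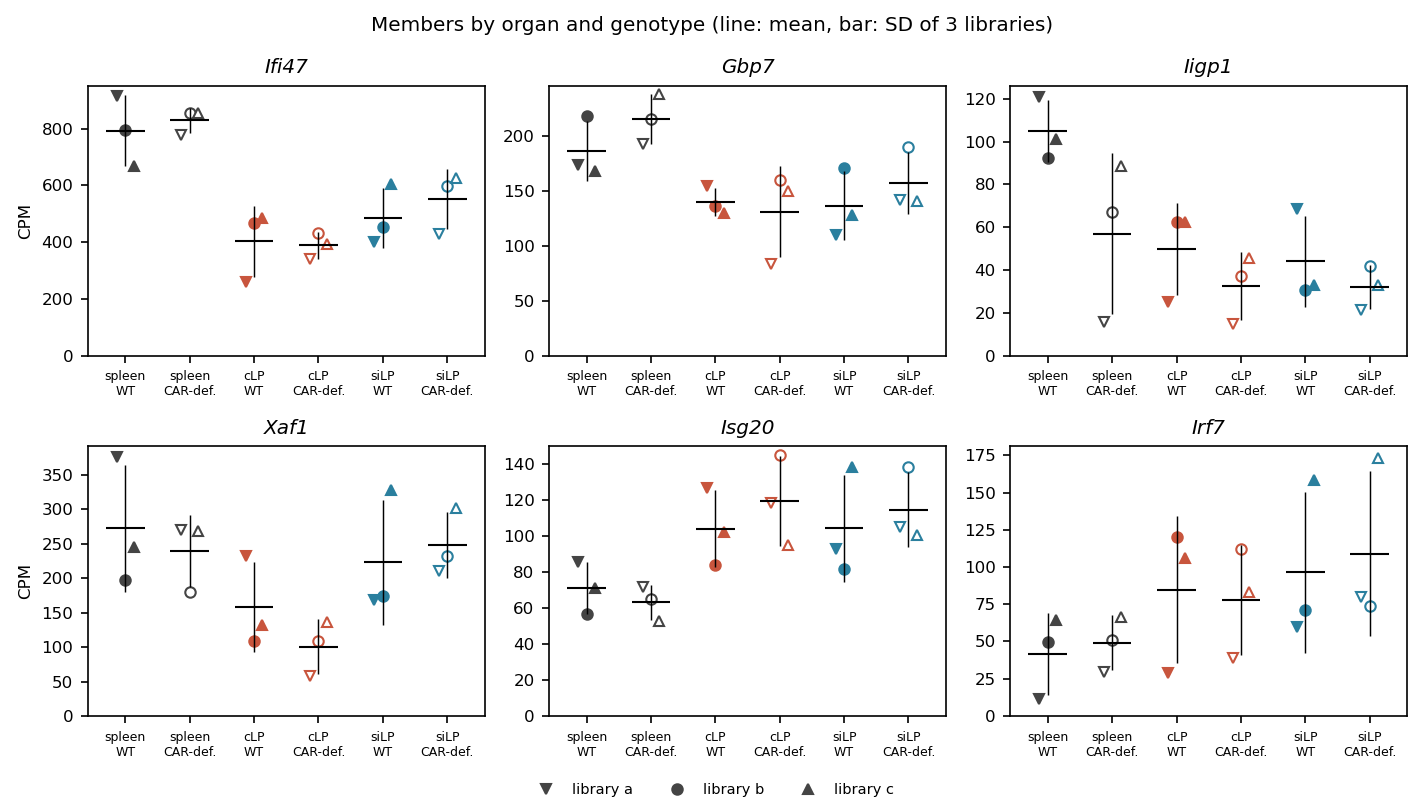
CPM of 6 genes in the 6 groups, 1 marker per library (shape: ending; filled: wild type; open: CAR-deficient), with the mean (line) and SD (bar) of 3 libraries. For Ifi47 all 12 gut libraries lie below the 6 spleen libraries; Isg20 and Irf7 have higher group means in the gut than in the spleen.

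In the small intestine the list was not shifted against the spleen as a whole, with 24 differences above and 26 below 0 and a median of 0.00. No member was past the threshold, where 0.807% of all genes were called higher and 0.0403% lower. At an unadjusted p under 0.05 there were 2 members higher and 6 lower, 16% of the members against 9.65% of all genes. DESeq2 called 2 members and 2.66% of all genes, and limma with quality weights 3 members and 1.69%. The 3 smallest p-values belonged to Isg20 (0.71 ± 0.19, adjusted p = 0.149, edgeR), Ifi47 (-0.65 ± 0.18, 0.169) and Gbp3 (-0.65 ± 0.22, 0.299). Isg20 ranged from 81.9 to 138.5 CPM in the small intestine, and Gbp3 from 44.0 to 79.5 CPM against 76.7 to 111.3 CPM in the spleen, with 1 library of overlap on each side.

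The fitted differences of the roles differed in direction in the small intestine. There 9 of 10 GTPases were below 0 (median -0.49), as were 7 of 8 class I genes (median -0.15). Of the antiviral effectors 15 of 20 were above 0 (median 0.36). Only Isg20 of these effectors was higher in all 6 pairs with the same ending, and none was lower in all 6. Oas2 was higher in 5 of 6 pairs and had 0 counts in both libraries of the CAR-deficient pair a. The remaining effectors did not keep 1 direction over the pairs. The 6 members on the lower side at an unadjusted p under 0.05 were all GTPases: Ifi47, Gbp3, Iigp1, Gbp7, Gbp4 and Irgm1. Irf7, the transcription factor that amplifies type I interferon, had a median of 50.4 CPM in the spleen (11.2 to 66.3) and 77.0 CPM in the small intestine (59.9 to 173.0). Its log2 fold change was 1.18 ± 0.46 (adjusted p = 0.392, edgeR), and it was higher in 6 of 6 pairs with the same ending. With the ending as a term, Irf7 was called higher (1.29 ± 0.28, adjusted p = 0.0323, edgeR) and Ifi47 lower (-0.67 ± 0.15, 0.0328), where 1.4% and 0.229% of all genes were called.

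Between the 2 gut sites, 36 of 50 fitted differences (siLP minus cLP) were above 0, with a median of 0.26 against -0.02 over all genes. No member was called, and 0% of all genes tested were. At an unadjusted p under 0.05 there were 5 members higher and 1 lower, 12% of the members against 8.34% of all genes. DESeq2 called 0 members and 1.44% of all genes, and limma with quality weights 2 members (4%) and 2.92%. Xaf1 was nearest, at 168 to 327.5 CPM in the small intestine against 57.5 to 232.7 CPM in the colon (0.90 ± 0.27, adjusted p = 0.252, edgeR). Mx1, a dynamin-like GTPase that blocks viruses, ranged from 20.2 to 72.6 CPM against 4.22 to 30.6 CPM (1.22 ± 0.41, adjusted p = 0.302), and Dtx3l from 50.9 to 98.3 CPM against 16.1 to 61.7 CPM (0.78 ± 0.28, adjusted p = 0.332). In Mx1, Dtx3l, Nlrc5 and Psmb9 all 6 pairs with the same ending were higher in the small intestine, 8% of members against 3.47% of all genes.

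Markers of other cells moved with organ. The haemoglobin genes Hbb-bs, Hba-a1 and Hba-a2 were called lower in each gut site than in the spleen, Hba-a2 reaching 1120 CPM in the spleen, 7.15 CPM in the colon and 3.33 CPM in the small intestine. Epithelial markers summed to 20.9 to 225.5 CPM in the colon, 3.97 to 25.6 CPM in the small intestine and 7.70 to 13.04 CPM in the spleen, and Cdh1 and Krt8, 2 of 9, were called higher in the colon. The part of these cells in the organ differences of the members was not tested. None of the 5 T cell markers was called in any organ or genotype comparison.

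**Figure D3:**
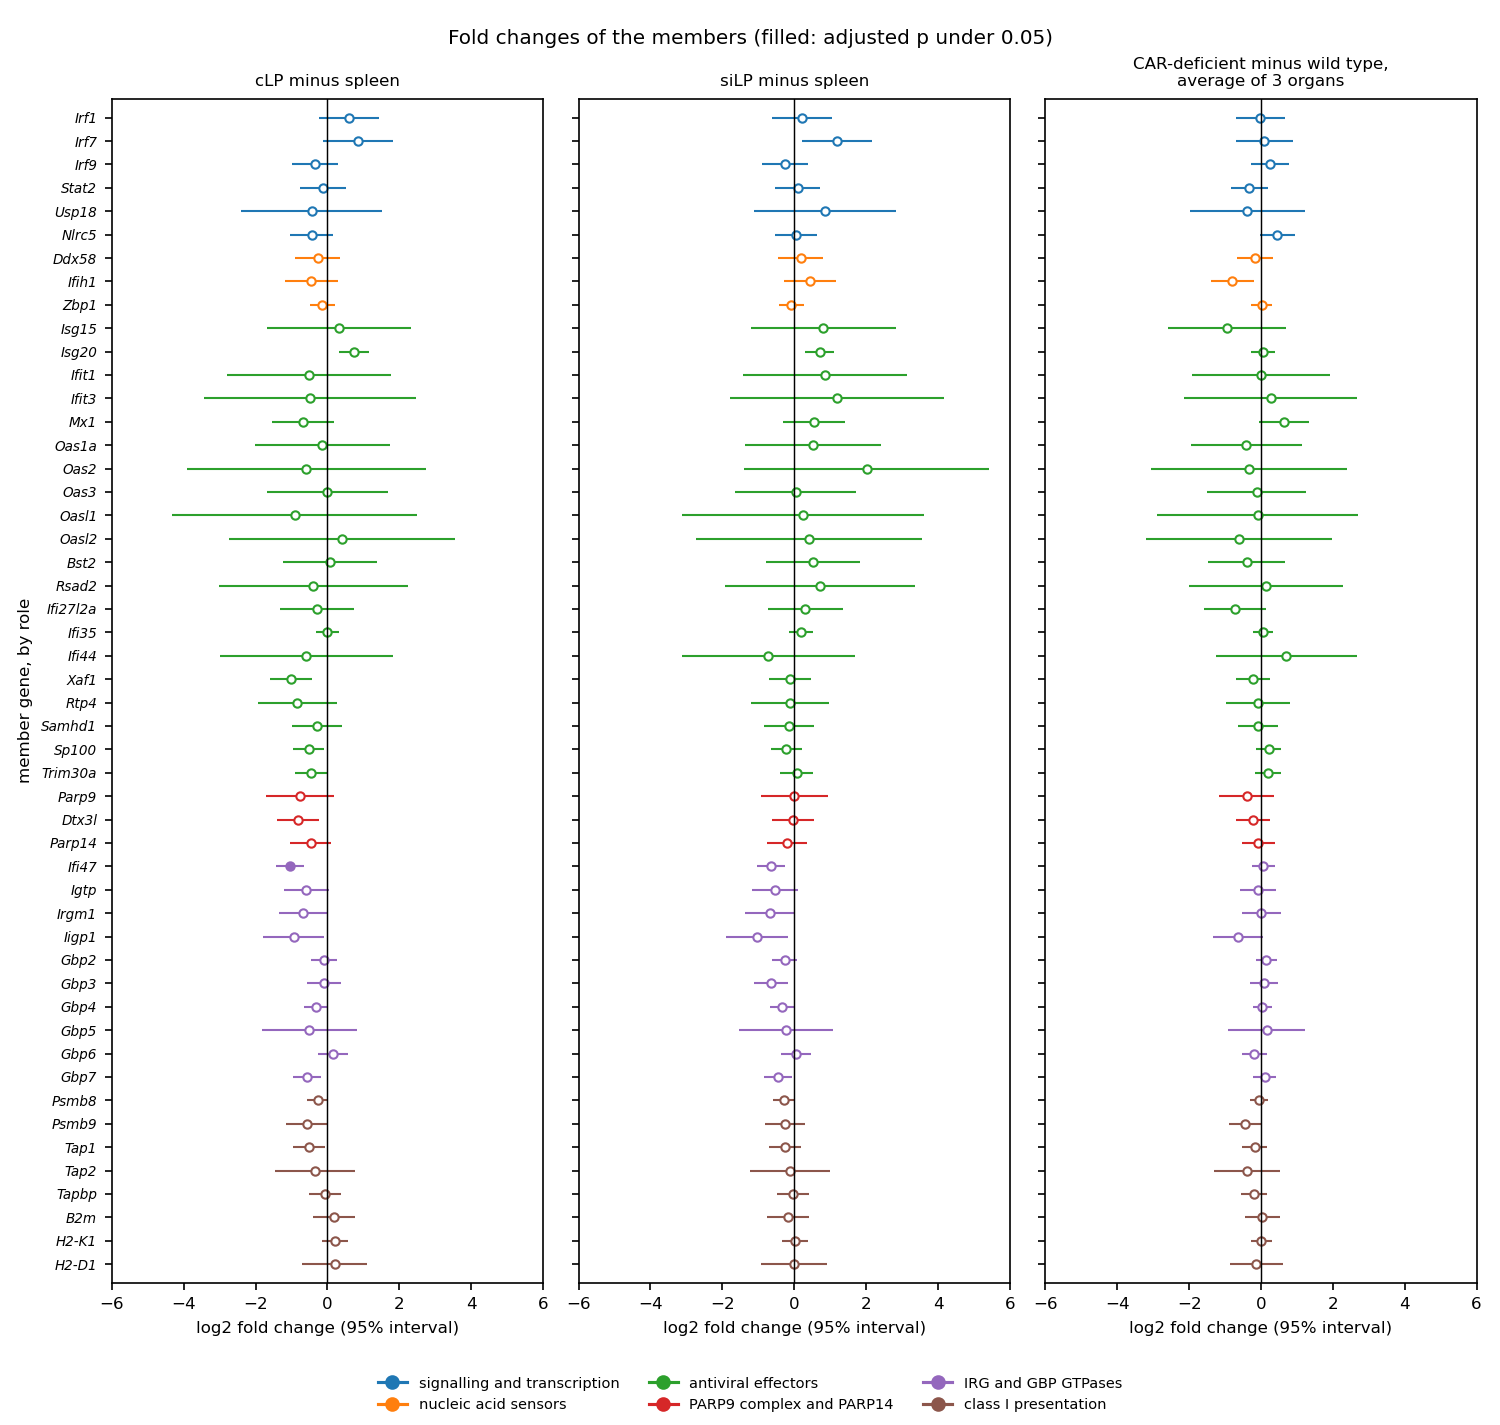
Log2 fold change (point) and 95% interval (bar) of each of the 50 genes in 3 comparisons, coloured by role, with filled points for an adjusted p under 0.05 (edgeR). In cLP minus spleen most points lie below 0 and only Ifi47 is filled; the antiviral effectors have the widest intervals in every panel.

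The class I molecules themselves did not pass the test between organs. H2-K1 had 1958 to 2668 CPM in the spleen, 2029 to 3086 CPM in the colon and 1592 to 2730 CPM in the small intestine. Its log2 fold change against the spleen was 0.20 (95% interval -0.16 to 0.56) in the colon and 0.03 (-0.33 to 0.39) in the small intestine. For B2m the intervals were -0.41 to 0.78 and -0.77 to 0.42, and for H2-D1, the second heavy chain, -0.71 to 1.11 and -0.91 to 0.91. These bounds leave room for a change of H2-D1 of about the size seen for Ifi47. Tapbp, which holds empty class I molecules near the transporter, was the member with the smallest share of its spread between organs apart from Oasl2, at 0.735%.

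The second question was whether CAR-deficient cells differ from wild type cells in these genes. No member passed the threshold in the spleen, the colon or the small intestine, where 0% of all genes did in each, nor in the average over the 3 organs, where 0.0134% did. No member passed in the test of a genotype effect that differs between gut and spleen, where again 0% of all genes did. At an unadjusted p under 0.05 there were 0 members in the spleen, the colon and the small intestine, against 1.95%, 2.44% and 4.31% of all genes. There were also 0 in that interaction, against 1.53% of all genes, and 1 (2%) in the average, against 5.77%. DESeq2 and limma called 0 members in all 5 comparisons. Over all genes, DESeq2 called from 0.0605% (interaction) to 0.820% (average), and limma from 0% (interaction) to 0.0739% (average).

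The gene with the smallest p in the average was Ifih1, with a log2 fold change of -0.80 ± 0.28 (95% interval -1.39 to -0.20, adjusted p = 0.657, edgeR), and -0.31 without the 6 libraries a. In the spleen it had 105.6, 57.8 and 36.8 CPM in wild type libraries a, b and c and 31.8, 36.2 and 36.6 CPM in CAR-deficient ones. In the colon the values were 72.5, 36.7 and 35.5 CPM against 20.9, 24.6 and 32.9 CPM. In the small intestine they were 73.2, 89.5 and 77.8 CPM against 16.6, 73.2 and 72.3 CPM. All 9 pairs with the same organ and ending were lower in CAR-deficient cells, but the differences were between -1.70 and -2.08 in the 3 pairs a and between -0.66 and -0.01 in the other 6, on the log2(CPM + 1) scale.

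All 9 pairs were also lower in Psmb9 and Ifi27l2a, making 3 of 50 members (6%) against 0.968% of all genes tested, and no member was higher in all 9. Psmb9 gave -0.43 ± 0.21 (adjusted p = 0.879, edgeR), and its 9 paired differences ran from -0.87 to -0.26. Ifi27l2a had 980.4, 693.3 and 2329 CPM in wild type spleen libraries a, b and c and 475.9, 373.3 and 1437 CPM in CAR-deficient ones. In the colon it had 1182, 715.5 and 1295 CPM against 483.6, 409.9 and 1022 CPM, and in the small intestine 839.0, 971.6 and 2869 CPM against 395.4, 563.6 and 2055 CPM. The groups overlap, and the pairs with the same ending do not cross. The fitted difference of Ifi27l2a was -0.73 ± 0.40 (adjusted p = 0.911, edgeR), and with the ending as a term it was -0.83 ± 0.17 (adjusted p = 0.114). In that second fit no member passed either, where 0.0471% of all genes did.

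In single organs the members with the smallest p-values were Ifih1, Iigp1 and Mx1 in the spleen (-0.94 ± 0.49, -0.88 ± 0.57 and 0.82 ± 0.58) and Ifih1, Mx1 and Xaf1 in the colon (-0.88 ± 0.49, 1.03 ± 0.58 and -0.65 ± 0.38). In the small intestine they were Ddx58, the sensor RIG-I, with Stat2 and Sp100 (-0.77 ± 0.42, -0.62 ± 0.42 and 0.41 ± 0.29). Adjusted p was 1 for each of these (edgeR). They rest on few libraries: without the 6 libraries a the colon value of Xaf1 was 0.0168, and without cLP wild type a that of Xaf1 was -0.26 and that of Ifih1 -0.46. When 1 library was left out, the spleen values ran from -1.23 to -0.42 for Ifih1 and from -1.35 to -0.45 for Iigp1, and the siLP values from -1.13 to -0.35 for Ddx58. H2-K1 differed by 0.01 in the average (95% interval -0.29 to 0.30), B2m by 0.03 (-0.45 to 0.52) and H2-D1 by -0.13 (-0.88 to 0.61). Over the list the median genotype difference was -0.08, against -0.01 over all genes.

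Taken over the list, the largest differences lay between the 3 name endings, though not in every role. This comparison was added after the values had been seen. Of the spread of log2(CPM + 1) over the 18 libraries, the endings held a median of 45.97% for the members and 20.1% over all genes tested, while organs held 13.5% and 13.1%. For the antiviral effectors the endings held a median of 59.0%, for signalling and transcription 49.3%, for class I presentation 42.3% and for the GTPases 18.8%. For the GTPases the organ share, 27.7%, was above the ending share. It was also above it for the nucleic acid sensors, at 10.1% against 4.95%. For Parp9, Dtx3l and Parp14 the median ending share and organ share were both 28.1%. Ifi47 (75.3%), Isg20 (62.4%) and Xaf1 (52.6%) had the largest organ shares of the 50 genes.

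**Figure D4:**
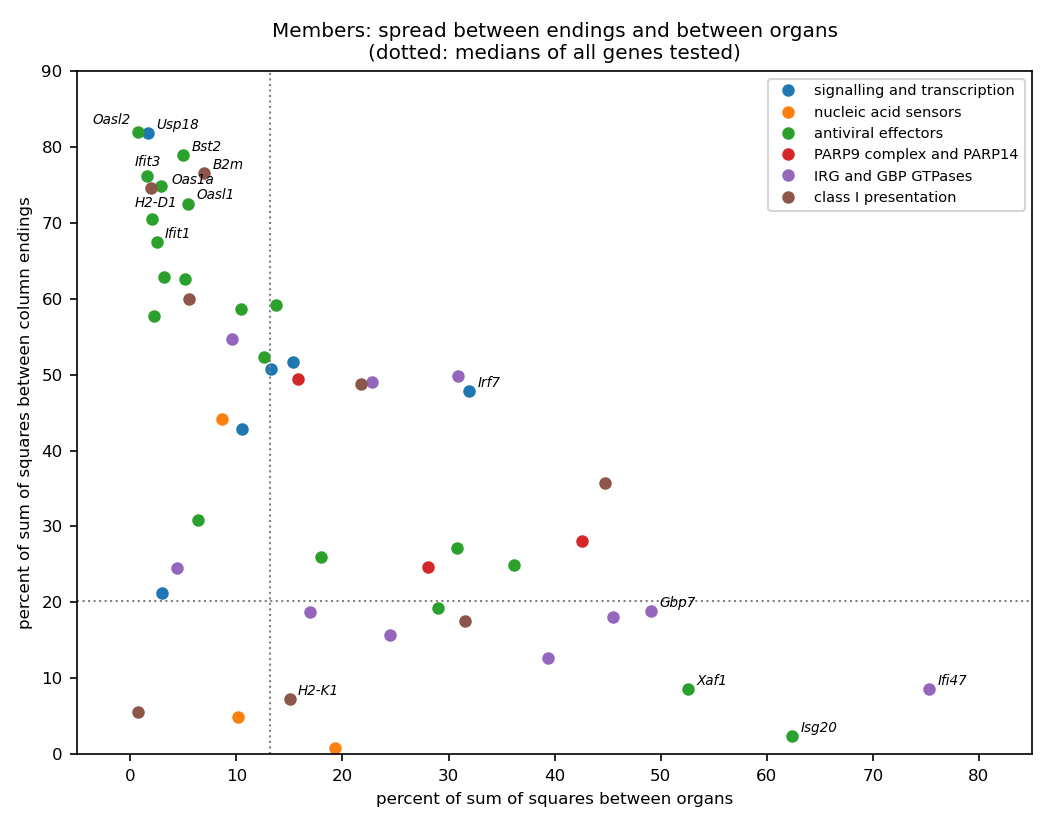
Percent of the sum of squares of log2(CPM + 1) over 18 libraries that lies between the 3 organs (horizontal axis) and between the 3 name endings (vertical axis), 1 point per gene, coloured by role; dotted lines are medians of all genes tested. Oasl2, Usp18, Bst2 and B2m lie highest on the ending axis, and Ifi47, Isg20 and Xaf1 farthest along the organ axis.

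In 14 of the 50 genes (28%) the library c was the highest of its group in all 6 groups, which held for 1.79% of all genes tested. They were Usp18, Irf9, Ddx58, Parp9 and the effectors Ifit1, Ifit3, Oas1a, Oas3, Oasl1, Oasl2, Bst2, Rsad2, Ifi27l2a and Rtp4. In a fit with ending and group, 2 members were higher in libraries c than in b, where 0.0941% of all genes were called higher, and 0 were lower, where 0.255% were. Both were among the 14, but those were picked on the same values, so no weight is put on this overlap.

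Usp18 removes ISG15 from proteins and restrains type I interferon signalling. Its libraries a held 5.07 and 9.17 CPM in wild type and CAR-deficient spleen, 15.2 and 6.35 CPM in colon, and 1.89 and 12.2 CPM in small intestine. Libraries b held 12.6 to 24.0 CPM, and libraries c 81.7 and 65.1 CPM in spleen, 50.6 and 42.4 CPM in colon, and 176.9 and 117.6 CPM in small intestine. All libraries c were above all libraries a and b, by a log2 fold change of 2.32 ± 0.44 over b (adjusted p = 0.0365, edgeR), a call that was lost in 12 of the 18 fits that leave out 1 library, and 3.34 ± 0.47 over a (adjusted p = 0.000628). Ifi27l2a was higher in c than in b by 1.58 ± 0.21 (adjusted p = 0.00331, edgeR).

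Against libraries a, 24 members were higher in libraries c (10.5% of all genes were) and 2 were lower (8.86% of all genes were). The median difference was 0.84 for the members and 0.27 over all genes, so that a value of 0.27 is the level of the average gene in this comparison. Of the 24, 12 were antiviral effectors, 4 were the regulators Irf1, Irf7, Irf9 and Usp18, 3 were the class I genes H2-D1, Psmb9 and Tap2, and the others were Ddx58, Parp9, Dtx3l, Igtp and Irgm1. Ifit1, which binds viral RNA ends and whose promoter window above holds 2 response element cores, had 0.242 to 40.0 CPM in libraries a, 23.3 to 43.5 CPM in b and 44.9 to 232.8 CPM in c. The difference c minus a for Ifit1 was 3.86 ± 0.97 on the log2 scale (adjusted p = 0.0139, edgeR). Isg15, the ubiquitin-like modifier, had 0.105 to 6.64 CPM in libraries a and 11.3 to 57.5 CPM in c (3.14 ± 0.74, adjusted p = 0.0105). For Bst2, a membrane tether of budding viruses, the ranges were 9.49 to 30.65 CPM and 61.4 to 149.5 CPM (2.31 ± 0.30, adjusted p = 0.000415). Ifit3, the partner of Ifit1, had 0 to 27.4 CPM in a and 42.1 to 251.3 CPM in c, the library spleen CAR-deficient a being the 1 with 27.4 CPM.

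Some effectors were near the limit of detection in libraries a, and no fold is given for those that follow. Isg15, whose fold is given above, had 2 counts in each of the libraries spleen CAR-deficient a and cLP CAR-deficient a. Its fold therefore rests in part on values near that limit. Oasl1 had no count in any of the 6 libraries a, which allows up to 0.135 to 0.185 CPM in those libraries (3 counts on the scaled totals, counting error only), and 0.635 to 3.34 CPM in c. Oas2 had fewer than 3 counts in 5 of 6 libraries a and 1.27 to 23.3 CPM in c, the highest in the library siLP wild type c. Oasl2 had fewer than 3 counts in 4 of 6 libraries a and 4.94 to 13.6 CPM in c. Ifi44 had fewer than 3 counts in 4 of 6 libraries a and, in c, 0.953 to 4.69 CPM. Its library spleen wild type a, however, held 83 counts (3.82 CPM), within the range of c and the highest of its group. Oas1a and Oas3, which make the activator of RNase L, were detected in all libraries, at 0.632 to 19.1 CPM and 0.766 to 15.8 CPM in a and at 55.5 to 140.1 CPM and 19.5 to 39.1 CPM in c.

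Libraries b also stood above a, with 14 members higher (7.58% of all genes were) and 2 lower (6.4% of all genes were). Both members lower in b and c than in a were B2m and Nlrc5, the transactivator of class I genes. B2m had 14730 to 23931 CPM in libraries a, 9530 to 14413 CPM in b and 9340 to 11554 CPM in c, with no overlap between a and the others, and c minus a was -0.87 ± 0.12 (adjusted p = 0.000538, edgeR). H2-D1 went the opposite way, with 873.4 to 2233 CPM in a, 1829 to 4491 CPM in b and 2683 to 4035 CPM in c (c minus a 1.28 ± 0.24, adjusted p = 0.00274). H2-K1 had 1914 to 3086 CPM in a and 2002 to 2730 CPM in c, and c minus a was 0.10 (95% interval -0.22 to 0.41). The light chain and the 2 heavy chains thus had 3 different patterns over the endings. Libraries a also differed in gene number and mitochondrial share (above) and in marker sums, with 10106 to 13444 CPM of T cell markers against 5263 to 6251 CPM in c, and 310.8 to 630.5 CPM of macrophage, monocyte and neutrophil markers against 226.3 to 282.6 CPM. Plasmacytoid dendritic markers summed to 69.3 to 193.7 CPM in c and to 12.97 to 64.1 CPM in a. That list includes the member Bst2, which alone had 61.4 to 149.5 CPM in c and 9.49 to 30.65 CPM in a. The sum therefore in large part repeats the values of Bst2. The part of these quantities in the ending differences was not tested.

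**Figure D5:**
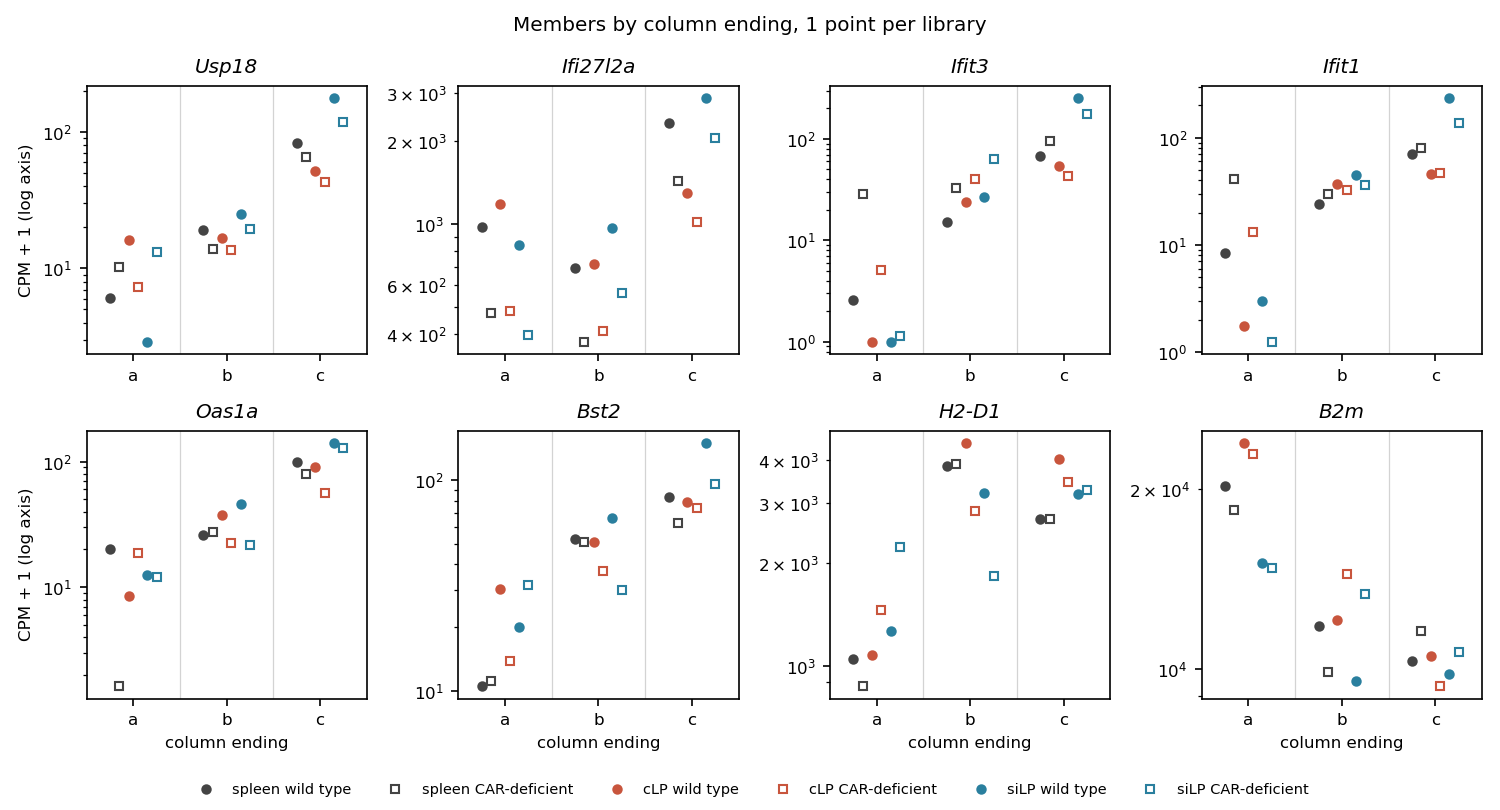
CPM + 1 (log axis) of 8 genes by name ending, 1 point per library, coloured by organ, filled for wild type and open for CAR-deficient. Usp18, Ifit1 and Oas1a in libraries c lie above all libraries a and b, B2m is highest in libraries a, and H2-D1 is low in 5 of 6 libraries a.

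Members of several roles were not called in c minus a, which does not show that they did not differ. They were 8 of the 10 GTPases (Ifi47, Iigp1, Gbp2, Gbp3, Gbp4, Gbp5, Gbp6 and Gbp7), the sensors Ifih1 and Zbp1, Stat2, Parp14, the class I genes Psmb8, Tap1, Tapbp and H2-K1, and the effectors Isg20, Mx1, Rsad2, Ifi35, Ifi44, Xaf1, Sp100 and Trim30a. Rsad2, the antiviral enzyme viperin and one of the 14 genes highest in c in every group, was at 0 to 9.06 CPM in a and 10.5 to 38.9 CPM in c without passing (adjusted p = 0.0948, edgeR). Gbp5, also in this set, was called higher in b than in a. Zbp1, a sensor of left-handed nucleic acid, was among the steadiest, at 101.4 to 164.0 CPM over the 18 libraries. Samhd1, which depletes nucleotides, and Rtp4 were among the 12 effectors higher in c than in a. Of the 5 markers of plasmacytoid dendritic cells, known as strong producers of type I interferon, Siglech reached 1.11 CPM, Tcf4 12.9 CPM, Ccr9 42.8 CPM and Bst2 149.5 CPM, and Cd209d was 0 in all 18 libraries.

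The rest of the pathway was read from 4 further lists. Of 9 interferon and receptor genes 6 were testable, and Ifnb1 and Ifna4 had at most 0.361 CPM in any library. Ifng, encoding interferon gamma, was called higher in the small intestine (2.36 ± 0.46, adjusted p = 0.0189, edgeR) and in the colon (1.90 ± 0.45, adjusted p = 0.0331) than in the spleen. Ifng levels were 242.1 to 842.2 CPM in the spleen, 1402 to 3900 CPM in the colon and 1207 to 7481 CPM in the small intestine, with no overlap between spleen and gut. Its receptor chain Ifngr1 was called higher in the colon (1.77 ± 0.26, adjusted p = 0.00114). The GTPases of the list are known targets of interferon gamma, and in each gut site 9 of 10 had fitted differences below 0. Over all genes, 49.2% of differences were above 0 in the small intestine and 50.2% in the colon. Irf1, also induced by interferon gamma, went the other way in the colon, higher in 6 of 6 pairs with the same ending. In the small intestine Irf1 was higher in 4 of 6 pairs. A link of these values to Ifng was not tested.

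Of 12 kinases, factors and inhibitors, 1 was called in each gut site against the spleen: Socs3, an inhibitor of cytokine receptors, was higher by 1.97 ± 0.35 in the small intestine (adjusted p = 0.0084, edgeR) and by 1.79 ± 0.35 in the colon (adjusted p = 0.00972). Ifng was lower in libraries c than in a (-1.52 ± 0.23, adjusted p = 0.000764), opposite to the antiviral effectors. None of 9 further class I assembly genes and none of 3 constitutive proteasome subunits was called between organs, the smallest p in the colon belonging to Psme1 (-0.32 ± 0.13, adjusted p = 0.207). No gene of the 4 lists was called by genotype, where Jak1 had the smallest p in the average over organs (0.35 ± 0.12, adjusted p = 0.661, edgeR).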

How the data were processed

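The authors' deposited table holds, per the file headers, estimated counts per mouse Ensembl gene for each of 18 libraries, made from about 500 cells each with a Clontech SMART-Seq v4 and NEBNext Ultra II DNA chemistry, per the labels' protocols. Salmon, DESeq2 and mm10 are named in the submitters' processing notes, without versions or roles, and the annotation is not given in the sources used here. Another 37 columns were not used. Columns name organ and CD45.1 status, and CD45.1 negative was taken as CAR-deficient by elimination.

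Here the counts were rounded, genes were kept by filterByExpr (14876 genes), and edgeR 4.0.16 (TMM, glmQLFit with 6 group means over 18 libraries, glmQLFTest, two-sided, common biological coefficient of variation 0.791) gave each comparison, with Benjamini-Hochberg adjustment over all genes and a threshold of 0.05. Within-genotype values come from the same fit. CPM use TMM-scaled totals, levels per kb use merged exon lengths, and spreads use log2(CPM + 1). Endings were compared in a fit with ending and group. Alternatives used RLE scaling, no low-count filter, DESeq2 1.42.0, limma 3.58.1 (voomWithQualityWeights), the ending as a term, and leaving out libraries, in R 4.3.3. The procedure was tested on simulated data. Names and positions come from GENCODE vM21 (GRCm38), which matched 34083 of 34162 identifiers.

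The members and lists were chosen with earlier results of these data known. All 50 members could be named. Per comparison, up to 8 members past the threshold with the largest change and at least 5 CPM, or otherwise the 3 with the smallest p, were to be given in full, pathway genes where past the threshold or with the smallest p, and the 3 highest and lowest members per length. Levels per length had been planned on TPM and were computed from counts instead. The ending comparisons and the members described in them as a set were chosen after their values were seen, as were Gbp6, Tapbp, Irf7, Iigp1, Zbp1 and Ifi27l2a where they are singled out by value.

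Some genes of the marker and pathway lists are not reported here.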

Additional observations from a re-analysis of the deposited data

How the results depend on the processing

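No paired analysis was possible because the count columns carry no replicate numbers, so the column ending was used as a term and for matched pairs in its place. RLE scaling changed no count of members past the threshold. Ifi47 remained called lower in cLP than in spleen in all 18 fits that leave out 1 library, at -1.11 to -0.92. The count for cLP minus spleen, 1, became 2 with no low-count filter, 4 with DESeq2, 11 with limma's quality weights, 8 with the ending as a term and 2 without the 6 libraries a, and 1 to 3 when 1 library was left out: 3 without cLP wild type a (with Parp14 and Xaf1) and 2 without siLP wild type c (with Xaf1). Calls over all genes moved too, from 2.72% higher and 0.35% lower to 1.97% in both directions together with no filter, 7.09% with DESeq2, 12.3% with limma, 5.02% with the ending as a term and 4.89% without the libraries a. For siLP minus spleen, 0 became 2 with DESeq2, 3 with limma's quality weights, 2 with the ending as a term and 1 (Iigp1) without the 6 libraries a. For siLP minus cLP, 0 became 2 with limma's quality weights and 1 (Ifih1) without the libraries a. The 5 genotype counts were 0 under every alternative run. For libraries c minus b, 2 became 6 with DESeq2 and 13 with limma's quality weights, and 1 to 3 when 1 library was left out, where Usp18 was lost in 12 of 18 fits and Ifi27l2a in none. For b minus a, 16 members became 7 to 15 when 1 library was left out. There were 7 without spleen wild type b, 9 without spleen CAR-deficient b, cLP wild type b or cLP CAR-deficient b, and 10 without cLP CAR-deficient a. Over all genes, b minus a called 8.28% without cLP wild type b, 9.81% without cLP CAR-deficient b and 10.2% without cLP CAR-deficient a. The main fit had called 7.58% higher and 6.4% lower. For c minus a, 26 became 23 to 27. Shares over all genes for the other ending alternatives are not given here, so those member counts cannot be set against them. The genotype value of Xaf1 in the colon, -0.65, was 0.0168 without the 6 libraries a. The causes were not tested. Totals of 19605135 to 25436389 counts per library leave Oasl1, Oas2, Oasl2 and Ifi44 near the limit of detection. Isg15, Ifit3 and Rsad2 were near it in some of the libraries a. The 3 libraries a group limit the size of change that can be called.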
